A study of Arabidopsis thaliana with 4 samples.

Results

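The chloroplast genome of Arabidopsis thaliana carries genes for the core subunits of the photosynthetic machinery and for part of the apparatus that transcribes and translates them. They were compared between jaw-D, a mutant that overexpresses the microRNA miR319a, and Columbia, the reference accession. Members were the probe sets that the platform annotation pairs with exactly 1 gene of the chloroplast genome. This gave 69 genes with 1 probe set each, out of 22746 probe sets that are not array controls, and no measured value was used to choose them. They stand for 69 of the 78 protein-coding gene symbols of the chloroplast genome in the TAIR10.1 reference. Another 7 genes, whose 8 probe sets the annotation pairs with more than 1 gene copy, did not meet the rule.

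Each genotype had 2 single-colour arrays, hybridised with total RNA of expanded leaves from short-day plants, and arrays 1 and 2 are those with the letters a and b in their titles. jaw-D is known as an activation-tagging line, in which enhancers near MIR319A raise the microRNA. TCP transcription factors are the known targets of miR319, which directs cutting of their mRNAs. The labels give no plant age and no origin for the 2 arrays of a genotype, such as separate plants. What the p-values measure is then the spread among these arrays, and that spread may be technical. The targets of miR319 are not analysed here.

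Genes of the chloroplast genome are transcribed by a bacterial-type polymerase, whose core the organelle encodes, and by phage-type polymerases imported from the cytosol. The bacterial-type enzyme transcribes most photosynthesis genes, while the rpoB unit and accD rely mainly on the phage-type enzymes. Most genes lie in units that are transcribed together and then cut, spliced and edited, so the steady level of a transcript also reflects its processing and stability. The proteins join nuclear-encoded partners in photosystem I, photosystem II, the cytochrome b6f complex, ATP synthase, the NDH complex, Rubisco and the chloroplast ribosome.

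No gene of the 69 passed the test between jaw-D and Columbia leaves. With limma and Benjamini-Hochberg adjustment over all 22746 probe sets, 0 of the 69 had an adjusted p under 0.05, against 0.189% of all probe sets, of which 0.154% were lower and 0.0352% higher in jaw-D. The smallest adjusted p of the 69 was 0.339. At an unadjusted p under 0.05 there were 2 genes with a negative difference, psbN and psaC, against 8.47% of all probe sets, and 0 with a positive one, against 4.53%. Differences, jaw-D minus Columbia on the log2(signal + 16) scale, ran from -0.68 to 0.19, and 0 of the 69 reached 1 in size, which is a 2-fold difference, against 1.56% of all probe sets. The 95% interval of the difference lay within -1 and 1 for 65 of the 69 genes, so that a 2-fold difference lay outside it for those. The intervals reached 0.43 to either side in the median.

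The differences leaned to negative values by a small amount that depended on how the arrays were scaled. The median was -0.13 over the 69 genes and -0.04 over all probe sets, and 56 of the 69 were below 0, against 56.9% of all probe sets. The count below 0 was 55 with each array centred on its median, 45 after quantile normalization and 32 when arrays were scaled on the spiked hybridization controls, with medians of -0.10, -0.04 and 0.00. Over all probe sets those 3 scalings gave 53.2%, 50.1% and 41.9% below 0, with medians of -0.02, -0.00 and 0.05. The 2 jaw-D values were both under the 2 Columbia values for 24 of the 69 genes, against 26.5% of all probe sets, and above them for 1 gene, against 17.5%. In whole-leaf RNA, fewer cells of a type and less RNA per cell cannot be told apart.

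**Figure D1:**
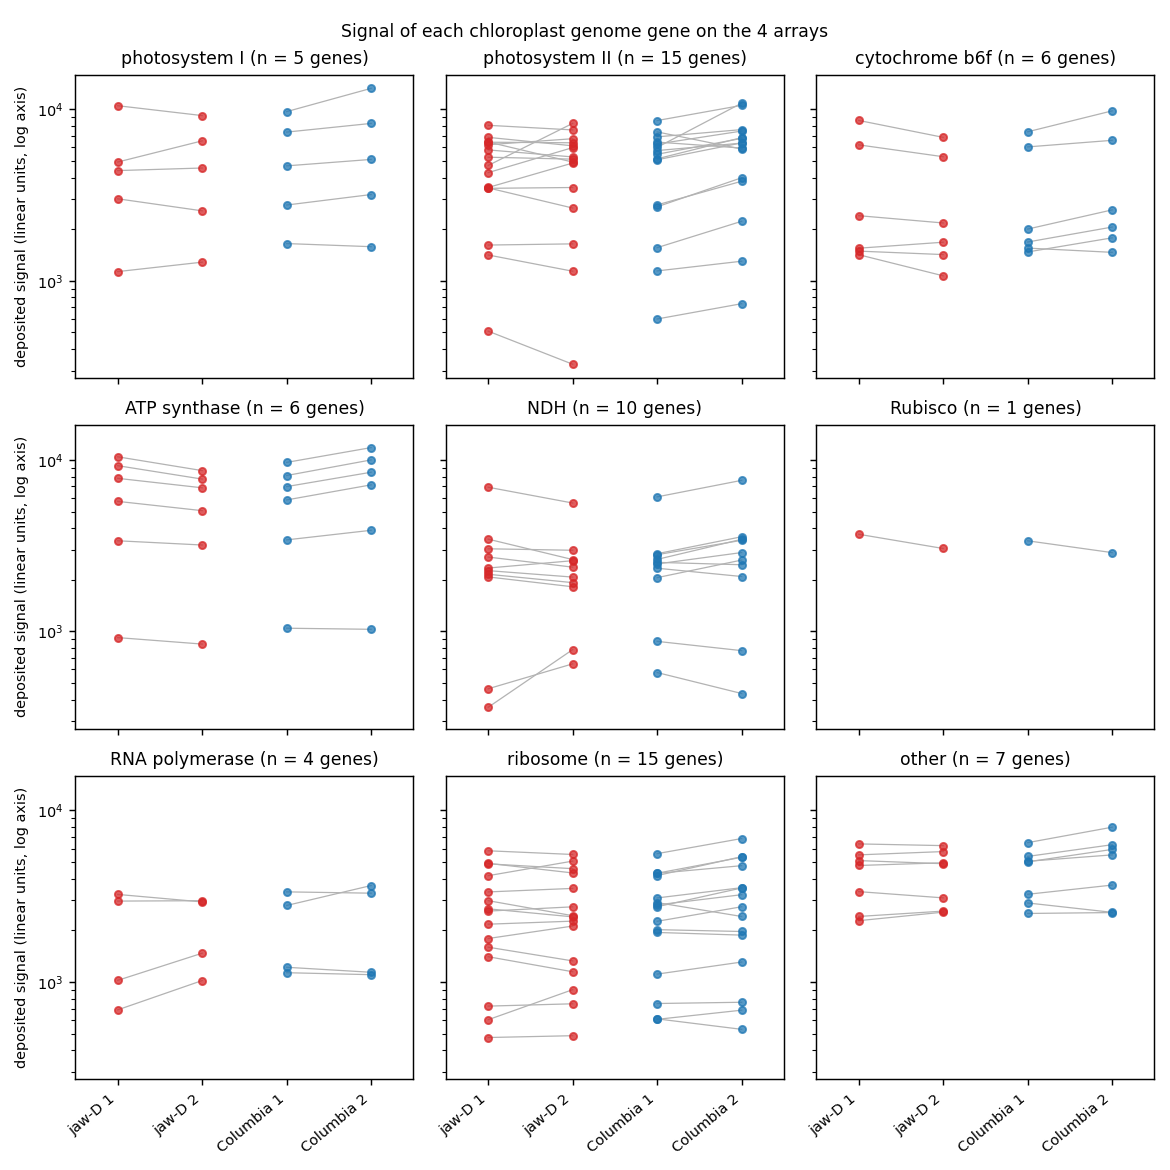
Deposited signal (linear units, log axis) of each of the 69 genes on the jaw-D arrays (red) and the Columbia arrays (blue), by complex, with a grey line joining a gene's values on the 2 arrays of a genotype. Signals ran from 326.5 for psbN on jaw-D array 2 to 13261.3 for psaB on Columbia array 2, and 44 of the 69 genes have overlapping genotypes.

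The tissue matched its label as far as the annotation allowed, which named 2 of 5 listed leaf genes, 3 of 3 root genes and 0 of 4 flower genes. The leaf genes LHCB4.1 and RCA, which encode an antenna protein and Rubisco activase, read between 7868.8 and 13088.8 on the 4 arrays, while the root genes PYK10, EXPA7 and EXPA18 read between 16.1 and 46.4. All 69 chloroplast genes had mean signals over 77.5, the median of the table, and 29 lay above the 99th percentile of 3451.0. Signals of different probe sets do not rank transcripts by abundance, and the deposited table does not say where a probe set saturates. Together the 69 genes made up 4.08% and 4.04% of the summed signal on the jaw-D arrays and 4.13% and 4.69% on the Columbia arrays. In this share Columbia array 2 stood above the other 3, which lay close together. The median signal of the 69 genes ordered the arrays otherwise, at 3350.5 and 2973.5 in jaw-D and 2889.1 and 3547.0 in Columbia. By that measure jaw-D array 1 lay near Columbia array 2.

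Photosystem I, which passes electrons to ferredoxin, had all 5 measured genes below 0, with a median of -0.21, a range of -0.46 to -0.10 and 0 called. psaA and psaB encode the paired proteins of the reaction centre. psaA read 4930.0 and 6552.7 in jaw-D leaves, against 7369.3 and 8279.8 in Columbia leaves. Both jaw-D values were the lower ones, with a log2 difference of -0.46 ± 0.19 (SE, adjusted p = 0.402 by limma). Without jaw-D array 1 it was -0.25. psaB read 10500.9 and 9197.7 in jaw-D, against 9702.3 and 13261.3 in Columbia. Here the genotypes overlapped, since 1 jaw-D array lay above Columbia array 1, and the difference was -0.21. Without Columbia array 2 it was 0.02.

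psaC encodes the iron-sulfur subunit at the stromal end of photosystem I. It read 1132.6 and 1285.6 in jaw-D, against 1650.0 and 1582.5 in Columbia. The genotypes were apart and the arrays of each close together, with a difference of -0.42 ± 0.15 (SE, adjusted p = 0.345 by limma), which ran from -0.51 to -0.33 when 1 array was left out. The small subunit genes psaJ and psaI had differences of -0.13 and -0.10, psaJ with the genotypes apart and psaI with them overlapping. The sign of the median for photosystem I was the same under all 4 scalings, at -0.07 after quantile normalization and -0.08 with spike-in scaling, although with spike-in scaling psaI turned to 0.03 and psaJ to 0.0005. Leaving out Columbia array 1 took that median to -0.39, and leaving out Columbia array 2 to -0.07.

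Photosystem II, which oxidises water, had 12 of 15 genes below 0, with a median of -0.16 and 0 called. That median was -0.29 without Columbia array 1 and -0.01 without Columbia array 2. psbA encodes D1, the reaction-centre protein that is replaced most often under light. It read 3503.5 and 4864.8 in jaw-D, against 5148.3 and 6840.2 in Columbia. Both jaw-D values were below both Columbia values, but the arrays of a genotype differed almost as much as the genotypes did. The difference was -0.52 ± 0.23 (SE, adjusted p = 0.426 by limma), and -0.29 without jaw-D array 1.

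psbD encodes D2, the partner of D1. It read 4278.4 and 5984.1 in jaw-D, against 6280.5 and 7470.8 in Columbia, so that the higher jaw-D array lay just under the lower Columbia array. Its difference was -0.44 ± 0.21 (SE, adjusted p = 0.465 by limma), and -0.19 without jaw-D array 1. psbC, for the antenna protein CP43, is the brightest probe set of the complex and overlaps psbD in the genome. It read 8072.7 and 7586.1 in jaw-D, against 8605.7 and 10549.5 in Columbia, again with the genotypes apart, and differed by -0.28, or by -0.14 without Columbia array 2 and -0.43 without Columbia array 1. psbB, for the antenna protein CP47, read 4709.3 and 8284.1 in jaw-D, against 6004.4 and 10870.5 in Columbia. Its 2 arrays within each genotype differed by more than the genotypes, whose difference of -0.37 had an SE of 0.38 and was 0.04 without jaw-D array 1 and 0.06 without Columbia array 2.

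psbN had the lowest difference of all 69 genes. It lies within the psbB unit on the opposite strand and is known as an assembly factor of photosystem II rather than a subunit. It read 509.0 and 326.5 in jaw-D, against 599.5 and 736.2 in Columbia. Both jaw-D values were under both Columbia values. The difference was -0.68 ± 0.25 (SE, unadjusted p = 0.0337, adjusted p = 0.339 by limma), and it was -0.99 when the first jaw-D array was left out and -0.37 when the second was. Of the small subunit genes, psbH and psbF had the genotypes apart, with -0.22 and -0.16. psbK, psbL and psbJ were the 3 genes above 0, at 0.05, 0.06 and 0.08, and psbT, psbE, psbI, psbZ and psbM lay between -0.19 and -0.02, all with overlapping genotypes. Under quantile normalization the median of the complex was -0.04, with 8 of 15 genes below 0, and with spike-in scaling it was -0.03, also with 8 of 15.

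The cytochrome b6f complex, which links the photosystems, had 5 of 6 genes below 0, a median of -0.14 and 0 called. The median moved to -0.28 without Columbia array 1 and to -0.02 without jaw-D array 2. petD, for subunit IV, read 1421.1 and 1070.1 in jaw-D, against 1474.4 and 1782.0 in Columbia. Both jaw-D values were lower, the higher of them by little, with a difference of -0.39 ± 0.20 (SE, adjusted p = 0.489 by limma) that was -0.19 without the second jaw-D array and -0.59 without the first. petB, for cytochrome b6, had the brightest probe set, at 8617.7 and 6866.3 in jaw-D, against 7400.0 and 9800.1 in Columbia. Its genotypes overlapped and the difference was -0.15. petA, for cytochrome f, had -0.14 with overlap. The small subunit genes petN, petG and petL had -0.20, -0.05 and 0.00, petN with the genotypes apart.

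ATP synthase had all 6 measured genes below 0, with a median of -0.16, a range of -0.26 to -0.07 and 0 called. Its median was -0.26 without jaw-D array 1 and -0.04 without Columbia array 2. atpA, for the alpha subunit of the catalytic head, read 5731.5 and 5059.6 in jaw-D, against 5844.0 and 7156.5 in Columbia, with a difference of -0.26 ± 0.17 (SE, adjusted p = 0.590 by limma) that was -0.12 without Columbia array 2 and -0.41 without Columbia array 1. The brightest probe set was that of atpB, for the beta subunit, at 10425.9 and 8662.6 in jaw-D, against 9673.0 and 11799.4 in Columbia. These overlapped. The difference of atpB, -0.17, became 0.03 after quantile normalization. atpH, for the ring subunit of the membrane part, had -0.07, which became 0.10 after quantile normalization and 0.06 with spike-in scaling. After quantile normalization 3 of the 6 genes were below 0, and the median was -0.02. atpE, for the epsilon subunit, had -0.09, which became 0.07 after quantile normalization and 0.04 with spike-in scaling. atpI and atpF, for other membrane subunits, had the genotypes apart, with -0.23 and -0.15.

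The NDH complex carries electrons back to plastoquinone around photosystem I. Of its 10 measured genes 9 were below 0, with a median of -0.12 and 0 called. ndhH read 361.3 and 783.6 in jaw-D, against 875.0 and 772.7 in Columbia. Only jaw-D array 1 was low, and the other jaw-D array lay between the Columbia arrays. The difference of -0.61 ± 0.35 (SE, adjusted p = 0.534 by limma) was -0.07 when its first jaw-D array was left out and -1.15 when the second was. ndhF, the 1 gene of the complex above 0, read 463.2 and 647.2 in jaw-D, against 575.7 and 434.5 in Columbia, and differed by 0.13. The brightest probe set, that of ndhI, had -0.13, which became 0.03 after quantile normalization and 0.00 with spike-in scaling. ndhG was the only gene of the complex with the genotypes apart, at -0.20. The other 6, ndhJ, ndhK, ndhD, ndhE, ndhA and ndhC, lay between -0.25 and -0.04 with overlap. The median of the complex was -0.11 after quantile normalization, 0.01 with spike-in scaling, -0.24 without Columbia array 1 and -0.06 without Columbia array 2.

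**Figure D2:**
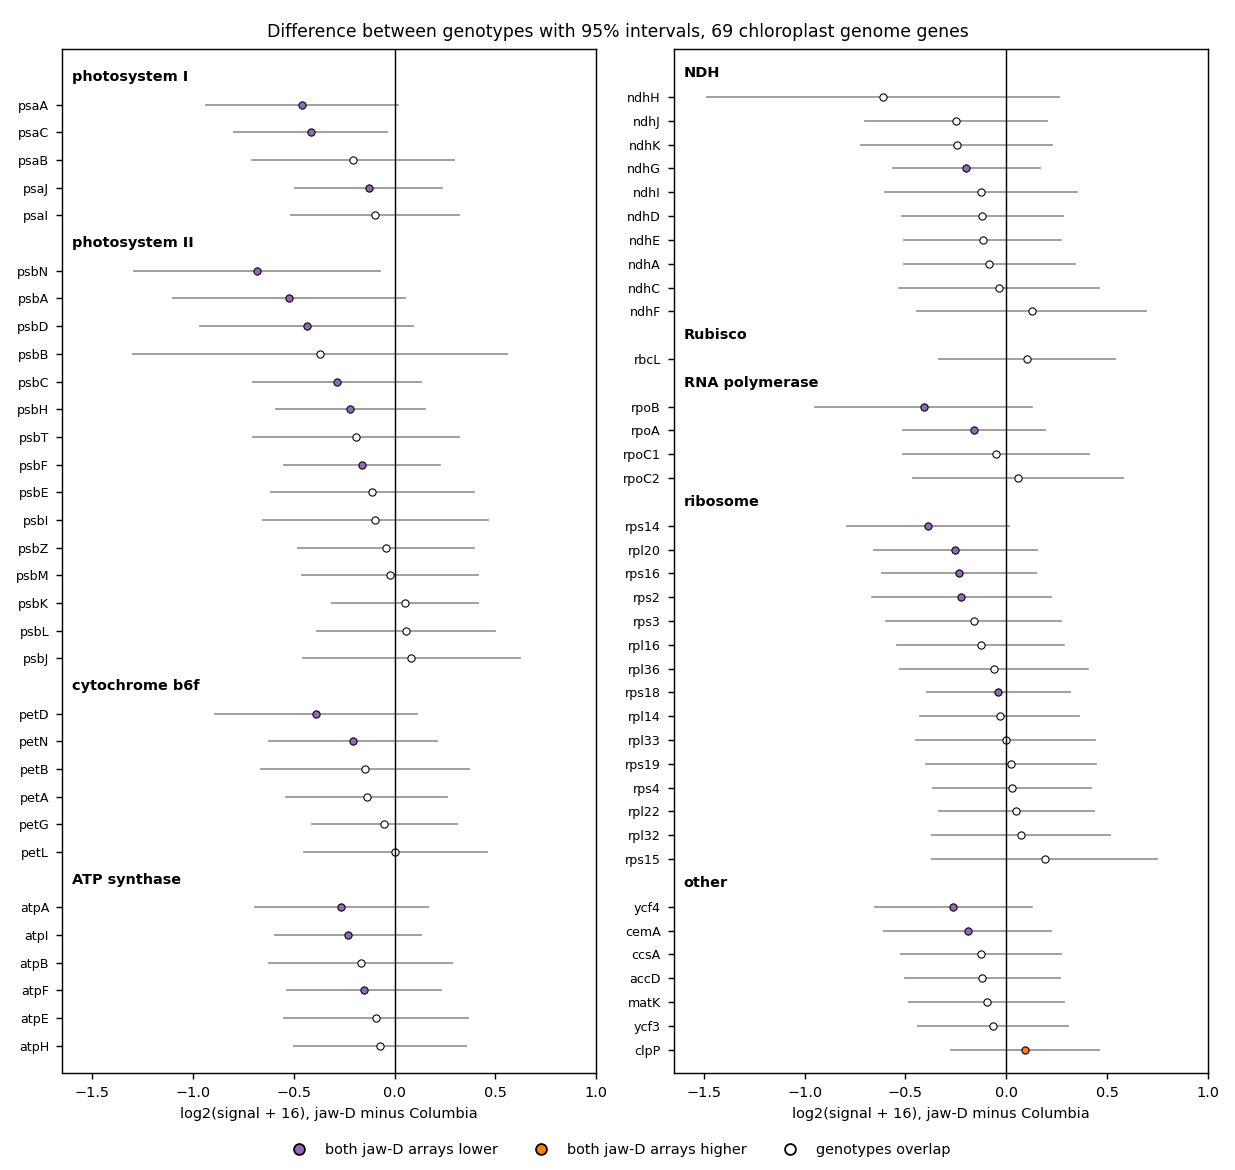
Log2 difference of each gene, jaw-D minus Columbia (x axis), with its 95% interval from limma, grouped by complex. Filled points mark genes whose 2 jaw-D arrays lay below (purple, 24 genes) or above (orange, 1 gene) both Columbia arrays, and only the intervals of psaC and psbN exclude 0 before adjustment.

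rbcL encodes the large subunit of Rubisco, the enzyme that fixes carbon dioxide. It read 3685.5 and 3044.6 in jaw-D, against 3375.7 and 2880.7 in Columbia. The genotypes overlapped, with a difference of 0.10 ± 0.18 (SE, adjusted p = 0.867 by limma). It stayed above 0 under all 4 scalings, at up to 0.23, but leaving out the first jaw-D array gave -0.03 and leaving out the second Columbia array -0.01.

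The 4 genes of the bacterial-type RNA polymerase had a median of -0.11 and 0 called, with 3 of 4 below 0. rpoB, for the beta subunit, read 687.9 and 1019.6 in jaw-D, against 1132.7 and 1103.0 in Columbia. Both jaw-D values were lower, 1 of them by far, with a difference of -0.41 ± 0.22 (SE, adjusted p = 0.498 by limma) that was -0.13 without jaw-D array 1. rpoC2 read 1022.2 and 1471.8 in jaw-D, against 1218.3 and 1139.1 in Columbia, so that its jaw-D arrays lay on both sides of the Columbia arrays, with a difference of 0.06. rpoC1, between them in the same unit, had -0.05. rpoA, for the alpha subunit, lies in a ribosomal protein unit and had -0.16, with the genotypes apart. The median of these 4 genes was 0.02 with spike-in scaling and -0.20 without Columbia array 1.

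The chloroplast ribosome had 10 of 15 genes below 0, with a median of -0.04 and 0 called. rps14 read 1595.2 and 1327.2 in jaw-D, against 1944.5 and 1876.1 in Columbia, and had the lowest difference of the group, -0.39 ± 0.16 (SE, adjusted p = 0.398 by limma). The genotypes were apart, and the difference was -0.26 without the second jaw-D array and -0.52 without the first. rps15 read 602.7 and 902.1 in jaw-D, against 605.7 and 684.9 in Columbia. It had the highest difference of all 69 genes, 0.19, through jaw-D array 2 alone, and was -0.09 without it. rpl16, the brightest of the group, had -0.13, and rpl20, rps16, rps2 and rps18 had the genotypes apart, with -0.25, -0.24, -0.22 and -0.04. rps3 had -0.16, and the other 7, all overlapping, lay between rpl36 at -0.06 and rpl32 at 0.07. The median of the ribosomal genes was -0.00 after quantile normalization, 0.09 with spike-in scaling, -0.12 without Columbia array 1 and 0.02 without Columbia array 2.

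The other 7 genes had a median of -0.12, and 0 called. The median was 0.01 with spike-in scaling, -0.04 after quantile normalization, -0.19 without Columbia array 1 and -0.04 without Columbia array 2. clpP, for the proteolytic subunit of the Clp protease, was the only gene of the 69 whose jaw-D arrays both lay above the Columbia arrays. It read 5510.3 and 5759.3 in jaw-D, against 5055.6 and 5508.8 in Columbia, so that the nearest arrays of the 2 genotypes almost coincided, and the difference was 0.09 ± 0.15 (SE, adjusted p = 0.85 by limma). ycf4, which acts in photosystem I assembly, read 4779.1 and 4953.7 in jaw-D, against 5397.2 and 6314.9 in Columbia, with a difference of -0.26 that was -0.15 without Columbia array 2. cemA, for a protein of the inner envelope, had -0.19, also with the genotypes apart. The overlapping genes were ccsA, for attaching haem to c-type cytochromes, at -0.13, accD, for a subunit of acetyl-CoA carboxylase in fatty acid synthesis, at -0.12, matK, for an intron maturase, at -0.10, and ycf3, another assembly factor of photosystem I, at -0.07.

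Genes of 1 transcription unit did not always share a value. The units were taken from textbook knowledge of the chloroplast genome, and 54 of the 69 genes lay in 15 of them. With the arrays as deposited, where 56 of the 69 genes were below 0, all measured genes were below 0 in 9 units. Those that begin with psaA, psbD and psbB stayed so under all 4 scalings. In each of the others at least 1 gene turned above 0 in at least 1 scaling. The widest spread, 0.53, was in the 7-gene unit from ndhH to ndhD, which also holds psaC and in which ndhH and psaC had the lowest values. The unit of rpoB, rpoC1 and rpoC2 spanned 0.47. Without jaw-D array 1 the order of these 2 units turned, since the first then ran from -0.33 for psaC to -0.05 for ndhD, with ndhH at -0.07, and the second from -0.13 for rpoB to 0.32 for rpoC2. The unit of psaA, psaB and rps14 ran from -0.46 to -0.21, and the unit of psbB, psbT, psbH, petB and petD from -0.39 to -0.15. rpl33 and rps18 differed from each other by 0.04, the narrowest spread. These spreads are a description, and the SE of a single gene's difference was 0.17 in the median.

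**Figure D3:**
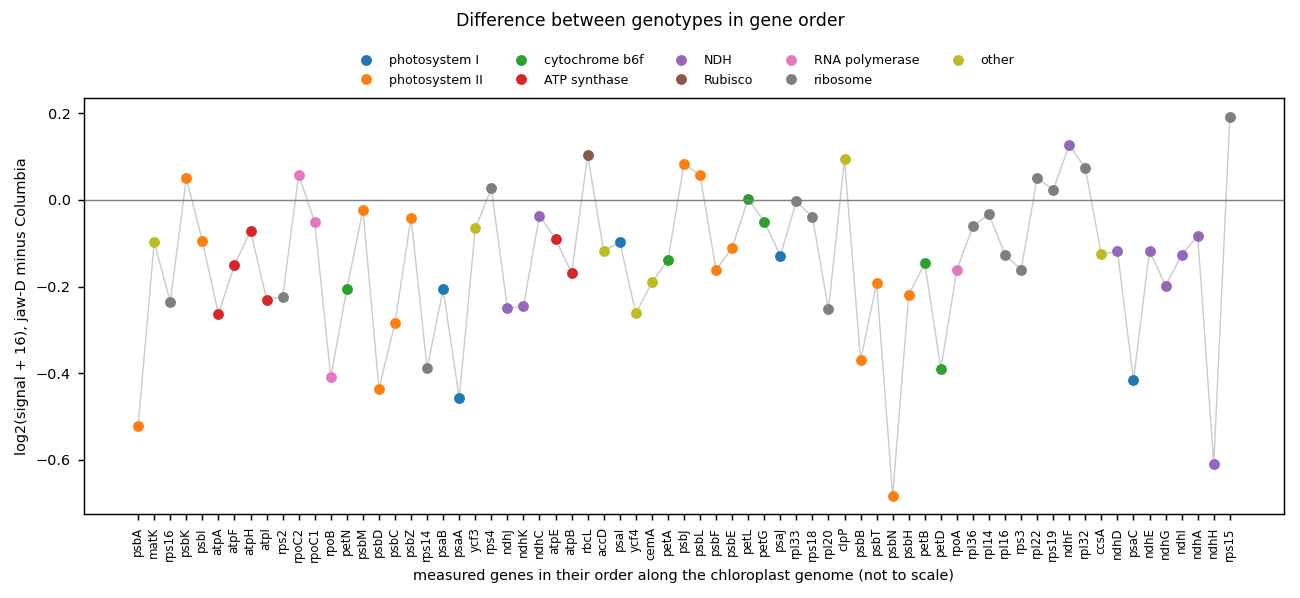
Log2 difference, jaw-D minus Columbia (y axis), of the 69 genes in their order along the chloroplast genome (x axis, not to scale), coloured by complex. psbN, ndhH, psbA and psaA lie lowest, each next to genes with differences nearer to 0.

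For most of these genes at least 1 pair of replicate arrays differed by more than the genotypes did. The genotype difference was larger than both replicate differences in 12 of the 69 genes, against 31.1% of all probe sets. In the median the 69 genes were 0.22 higher on Columbia array 2 than on Columbia array 1, and 0.07 lower on jaw-D array 2 than on jaw-D array 1, while the medians over all probe sets were 0.00 and 0.02. Columbia array 2 was the higher one for 51 of 69 genes, and jaw-D array 1 for 41 of 69.

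The hybridization spike-ins, bacterial and phage sequences meant to be added alike to each array, also read highest on those 2 arrays. The 3' probe set of cre read 9538.9 and 6978.3 on the jaw-D arrays, against 7490.7 and 9461.4 on the Columbia arrays. Averaged over 9 such probe sets, the arrays stood at 0.20 and -0.33 for jaw-D and at -0.08 and 0.21 for Columbia on the log2 scale, relative to their mean. Scaling on these rows brought the median difference between the Columbia arrays to -0.07, and took that between the jaw-D arrays to 0.45. Scaling on the spike-ins thus narrowed the gap in Columbia and widened it in jaw-D.

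About as many of the 69 genes departed from this order in 1 or both genotypes as shared it. Array 2 read higher than array 1 in both genotypes for psbB, by 0.81 in jaw-D and 0.85 in Columbia, for psbA, by 0.47 and 0.41, for psbD, by 0.48 and 0.25, and for psaA, by 0.41 and 0.17, genes picked out after their values were seen. In total 17 genes were higher on array 2 in both genotypes, against 24.5% of all probe sets. The 25S rRNA control ran the other way, at 2760.2 and 407.9 on the jaw-D arrays and 3146.4 and 800.4 on the Columbia arrays. Its part in these values was not tested. On jaw-D array 1 the first GAPDH control had a 3' to 5' ratio of 2.06, against 1.36 on jaw-D array 2 and 1.41 and 1.43 on the Columbia arrays. That array was the lower by at least 0.4 for 9 of the 69 genes, which were ndhH, rps15, rpoB, rpoC2 and ndhF beside the 4 named above, and whether RNA quality has a part in this was not tested. The first actin control gave 11.9 and 8.74 on the jaw-D arrays and 5.28 and 10.8 on the Columbia arrays. The second actin control was also highest on jaw-D array 1, at 2.56, against 1.93 on jaw-D array 2 and 2.06 and 2.06 on the Columbia arrays, while the second GAPDH control was not, at 1.16 on that array and 1.24 on jaw-D array 2.

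**Figure D4:**
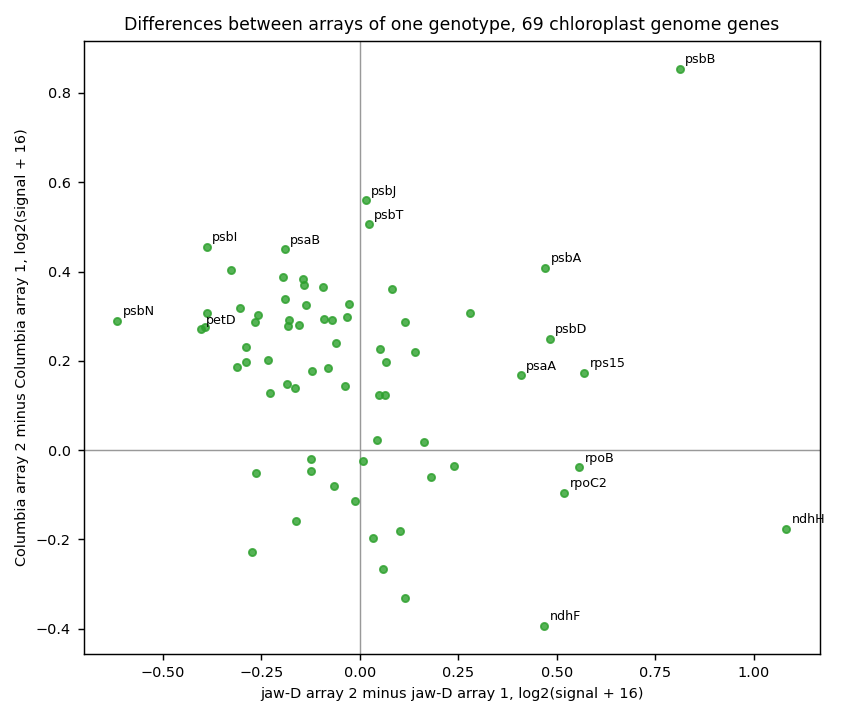
Difference between the 2 arrays of jaw-D (x axis) and between the 2 arrays of Columbia (y axis) for each of the 69 genes, as array 2 minus array 1 on the log2(signal + 16) scale. The 51 genes above the horizontal line read higher on Columbia array 2, psbB stands alone at the upper right, and ndhH stands alone at the far right.

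Nuclear genes for partners of the same complexes, together with some for carbon fixation and cyclic electron flow, are given beside them. The annotation named 16, and 0 were called by limma, against 0.189% of all probe sets. At an unadjusted p under 0.05 there was 1 of 16, against 13.0%. Their median difference was -0.18, with 14 of 16 below 0, against 56.9% of all probe sets. The median was -0.03 after quantile normalization and -0.05 with spike-in scaling. RCA read 9730.1 and 7868.8 in jaw-D, against 9013.3 and 10769.7 in Columbia. Between arrays these nuclear genes were 0.19 higher in the median on Columbia array 2 than on Columbia array 1, and 0.17 lower on jaw-D array 2 than on jaw-D array 1.

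LHCB4.3, for a form of the antenna protein CP29, had the lowest value of the 16. It read 251.4 and 314.4 in jaw-D, against 631.9 and 495.4 in Columbia, with a difference of -0.95 ± 0.20 (SE, adjusted p = 0.183 by limma). Its genotypes were apart. LHCB4.1 and LHCB4.2, for other forms, had -0.19 and -0.13. The photosystem genes PSBW and PSBY, for small subunits of photosystem II, had -0.21 and -0.20, and PSAE-1, PSAN and PSB27 had -0.19, -0.17 and -0.12. NDHL and NDHN, of the NDH complex, had -0.32 and -0.22, both with the genotypes apart. SBPASE, PRK and RCA, of carbon fixation, had -0.24, -0.18 and -0.17, ATPC1 and ATPC2, for the gamma subunit of ATP synthase, -0.14 and 0.20, and PGRL1B, of cyclic electron flow, 0.02. For nuclear factors of chloroplast transcription and nuclear proteins of the chloroplast ribosome, the annotation named 0 of 53 and 0 of 40 listed genes. Coverage was also partial elsewhere, at 8 of 52 for the photosystems and antenna. A listed gene that was not named may still be on the array.

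**Figure D5:**
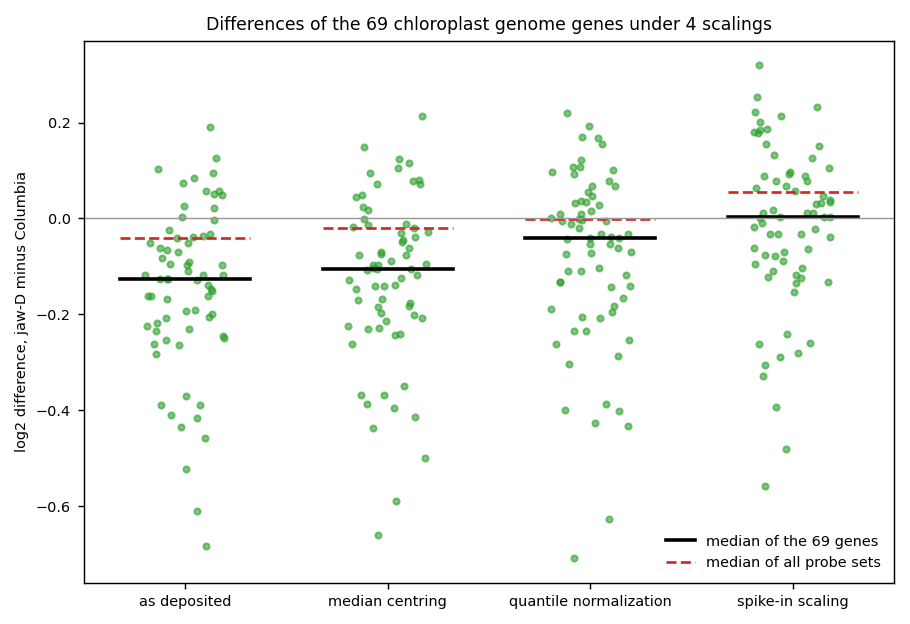
Log2 differences of the 69 genes, jaw-D minus Columbia (y axis), with the arrays as deposited, centred on their medians, quantile normalized and scaled on the hybridization spike-ins. The median of the 69 genes (black) lies below that of all probe sets (red, dashed) in each, and is -0.13, -0.10, -0.04 and 0.00 from left to right, so that it is no longer below 0 with spike-in scaling.

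The sign of the difference was the same under all 4 scalings for 43 of the 69 genes, 30 below 0 and 13 above. Those below included psbN, ndhH, psbA, psaA, psbD, psaC, rpoB, petD and rps14, whose differences with spike-in scaling lay at -0.56, -0.48, -0.39, -0.33, -0.31, -0.29, -0.28, -0.26 and -0.26. When each array in turn was left out, 37 genes kept 1 sign, 36 of them below 0 and clpP above. Neither count has a share over all probe sets beside it, so they do not set these genes apart from other probe sets. After quantile normalization the jaw-D values were both the lower ones for 20 of the 69 genes, against 21.1% of all probe sets, and with spike-in scaling for 2, against 13.2%.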

How the data were processed

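The table deposited by the authors holds 1 signal intensity per probe set and array, and its range shows a linear scale. Array medians lay between 74.6 and 77.2. For software, labelling primer and any scaling, the sources used here give nothing. Of 22810 rows, 64 array controls were left out. Probe sets were named from the platform annotation, and genes were placed on the chloroplast genome through their identifiers in the TAIR10.1 reference, used only for names and order. No sequence is shown.

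Signals were transformed as log2(signal + 16), which understates the change of dim probe sets, and tested with limma 3.58.1 (lmFit, eBayes) under R 4.3.3. Residual degrees of freedom were 2, and the prior added 3.76. The two-sided p-values were adjusted by Benjamini-Hochberg across the 22746 probe sets. With 2 arrays against 2, the smallest p of an exact permutation test is 0.333. Precision is limited by the number of arrays. The test was tried on simulated data.

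Members, lists and alternatives were chosen with earlier results of these data known, and spike-in scaling was added after seeing the data. Named genes were any called member and, in each complex, the brightest and those with the highest and lowest difference, 25 in all. The rule also names up to 3 genes of each nuclear list by unadjusted p. All other genes, such as psbA, psbB, psbD and psaC, were named after their values were seen. Figures were drawn with matplotlib 3.10.9.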

Additional observations from a re-analysis of the deposited data

How the results depend on the processing

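No chloroplast genome gene was called by limma under any of the 15 alternatives, and their median difference ran from -0.23 to 0.00. It was -0.04 after quantile normalization and 0.00 with spike-in scaling, and from -0.23 to -0.04 without 1 array, the extremes being without Columbia array 1 and without Columbia array 2. With all 4 arrays in the fit, between 0 and 5 of the 69 had an unadjusted p under 0.05 by limma. The 5 came with the filter at the median signal, against 1640 of 11375 probe sets tested, and at the 25th percentile, against 2559 of 17060. The 43 calls over all probe sets became 291 over those at or above the median signal and 224 at or above the 25th percentile, where fewer were tested, 103 with an intensity trend and 0 with pseudocount 1, although 2538 passed 0.05 unadjusted. Leaving out any 1 array gave 0 calls, with 1978 to 2492 at an unadjusted p under 0.05. With spike-in scaling there were 160, and the 8 higher and 35 lower became 80 and 80. The prior then added 71.55 degrees of freedom, against 3.76, and 1131 probe sets passed 0.05 unadjusted, against 2957. The spread was thus estimated unlike that of the main fit, and the 2 counts of calls are not directly comparable. The cause was not tested. The replicate block gave 66 calls, 0 of them chloroplast genome genes. The deviations of arrays with the same number correlated at -0.0743 over all probe sets. Whether a number marks anything shared was not tested, and no label says that it does.

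Of the 69 genes, 11 turned sign after quantile normalization, 24 with spike-in scaling and 32 without at least 1 array, among them psbB and psaB. Values follow for the 25 genes that the naming rule gave. After quantile normalization atpH, atpB and ndhI had 0.1007, 0.0328 and 0.0288. With spike-in scaling atpH, rpoC1, psaI, rpl16 and ndhI had 0.0583, 0.0774, 0.0318, 0.0028 and 0.0029. Without 1 array the ranges were -0.2096 to 0.0679 for atpH, -0.2018 to 0.3173 for rpoC2, -0.2437 to 0.1406 for rpoC1, -0.4317 to 0.0185 for psaB, -0.0344 to 0.2399 for rbcL, -0.213 to 0.0191 for psaI, -0.196 to 0.3636 for psbJ, -0.1817 to 0.1873 for petL, -0.3487 to 0.0558 for petB, -0.2723 to 0.0195 for rpl16, -0.1076 to 0.3612 for ndhF, -0.2859 to 0.0333 for ndhI and -0.0935 to 0.4759 for rps15. The cause was not tested. Spike-in scaling was chosen after seeing the data. Without the brightest 1% of probe sets 40 of the 69 genes remained, with a median of -0.11. The table carries no detection calls and no saturation flags, so bounds at either end of the signal range are unknown.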

Other observations

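The mitochondrial genome, the other organelle genome of the leaf cell, was measured by 23 probe sets of 16 named genes, with signals from 0.6 to 703.1. None was called by limma, against 0.189% of all probe sets, and 3 of 23 had an unadjusted p under 0.05, against 13.0%. Their median difference was -0.20, with 19 of 23 below 0, against 56.9% of all probe sets. The genotypes were apart, with jaw-D lower, for 8 of 23, against 26.5%. The median was -0.13 after quantile normalization and -0.10 with spike-in scaling. nad1, for a subunit of respiratory complex I, is read by 7 probe sets, all 7 below 0 and between -0.52 and -0.20. They hold 2 of the 3 with an unadjusted p under 0.05 by limma and 4 of the 8 with the genotypes apart. The median and counts over the 23 thus weigh this gene 7 times and do not describe 23 separate genes. The lowest difference of the 23, -0.93, was that of matR, at 2.0 and 43.4 in jaw-D, against 38.9 and 55.0 in Columbia, with overlap. ccb206, a cytochrome c maturation gene, read 55.1 and 42.6 in jaw-D, against 76.8 and 68.4 in Columbia, with a difference of -0.46 (adjusted p = 0.350 by limma). These values of matR and ccb206 are dim, all under 77.5, the median of the table. nad4, another complex I gene, read 552.5 and 613.0 in jaw-D, against 684.9 and 703.1 in Columbia, and differed by -0.25. cox2, for a subunit of cytochrome oxidase, had 0.08 and its genotypes overlapped. Between replicates, in the median of the mitochondrial probe sets, array 2 stood above array 1 by 0.01 in jaw-D and by 0.04 in Columbia.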
